A study of Mus musculus with 54 samples.

Results

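The endothelin system of the ovarian follicle wall was described through 5 genes: the ligand precursors Edn1 and Edn2, the receptors Ednra and Ednrb, and Ece1, the enzyme that converts the precursors to active peptides. They were taken by symbol from a table of 25149 genes, and all 5 were present. Follicles had been isolated from CD-1 mice aged 14 to 16 days and cultured for 8 days in alginate, and they then spent 12 h in medium with FBS, EGF and recombinant FSH, either without hCG or with hCG, an analog of luteinizing hormone that triggers ovulation. Each follicle was then cut into the side that ruptures and the opposite side, and the RNA of single sides was sequenced. The 4 groups were the putative unruptured side (15 libraries) and the putative ruptured side (14 libraries) without hCG, named putative because those follicles had not ruptured, and the unruptured side (12 libraries) and the ruptured side (13 libraries) post-hCG.

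Endothelins are short vasoactive peptides that are cut from larger precursors, first to an inactive big endothelin and then by endothelin-converting enzymes to the active form. They act on a pair of G protein-coupled receptors, of which the type A receptor drives calcium release and contraction of smooth muscle and the type B receptor can drive nitric oxide release and clear the peptide. In the ovary, Edn2 is known as a ligand of granulosa cells that appears briefly around follicle rupture and can contract the follicle wall. Per the study's methods the isolation strips much of the theca layer, which grows back during culture, and the follicles are cultured without the surrounding ovary.

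Total counts ran from 1497071 to 2834734 per library. Cumulus-oocyte complex is the tissue given in the labels, but the complexes were discarded per the study's methods. The summed TPM (a level per length of transcript) of 7 oocyte markers had group medians of 0 to 0.08, with a highest value of 149. The median summed TPM of 7 granulosa markers was 1169 to 9128. Most of it was Inha, with group medians of 1051 to 9027, and Amh had 0 counts in the putative ruptured and the ruptured libraries. The sample descriptions name a well for each library, and the row letters put the sides unevenly on the plates: post-hCG, only row C held both sides (4 unruptured and 5 ruptured libraries), and without hCG only row G did (5 and 5). No row held both media, so the effect of hCG and of plate row cannot be told apart. Between the sides without hCG, 1613 of 9063 genes tested passed the threshold over all libraries, and 3 of 9068 tested did within row G. Between the sides post-hCG, 1833 of 8585 passed over all libraries and 748 of 9004 within row C. The labels do not tie sides to follicles or mice, so p-values measure only the spread between these libraries.

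The endothelin ligands exchanged places between the media. Edn2 was near absent without hCG and present in all 25 libraries post-hCG, whereas Edn1 was at a low level without hCG and all but absent post-hCG. Without hCG, 92 counts belonged to Edn1 and 1 to Edn2, an Edn2 share of 1.08% (95% exact binomial interval 0.0272% to 5.85%). Post-hCG, 2 counts belonged to Edn1 and 1078 to Edn2, an Edn2 share of 99.81% (99.33% to 99.98%). Edn3, the third ligand, had a count in 1 of the 29 libraries without hCG and in none of the 25 post-hCG. These intervals, and those on pooled counts below, cover counting error only and not the spread between libraries.

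The ligands are related in sequence, so the stretch of their coding regions that is most alike is shown to make clear how they are told apart. It is the 63-base window, read in frame from the start codon, with the fewest differences between the GENCODE transcripts of both genes on GRCm38. It runs from base 169 to 231 of the Edn1 coding sequence and from base 148 to 210 of that of Edn2, and capitals mark the 8 bases that differ.
Edn1: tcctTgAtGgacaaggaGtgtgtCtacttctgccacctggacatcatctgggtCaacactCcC
Edn2: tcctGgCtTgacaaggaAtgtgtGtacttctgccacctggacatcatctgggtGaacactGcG
The differences fall in 6 of 21 codons, and no run of 31 bases was shared between any of the 5 genes in their annotated transcripts. None of the 1432 runs of 31 bases in the Edn2 transcript occurred in the transcript of another gene, and 12 of the 2109 in the Edn1 transcript did.

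Edn2 lies on chromosome 4 (GRCm38, chr4:120161206-120167360, plus strand) and has 1 annotated transcript of 1462 bases, with no overlapping gene. On the putative unruptured side 1 of 15 libraries held a single Edn2 count, and on the putative ruptured side 0 of 14 did, which allows a level of up to 0.122 CPM, the count scaled to the library total. Post-hCG, the unruptured side held 12 to 108 counts (median 26) and 2.90 to 24.7 TPM (median 6.865). The ruptured side held 17 to 146 counts (median 40) and 3.84 to 33.8 TPM (median 10.1). Every post-hCG library was above every library without hCG, on both sides. Such a separation in TPM towards higher levels was found for 3.82% of 9320 genes on the unruptured side and for 3.43% of 8531 genes on the ruptured side.

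The pooled Edn2 level on the unruptured side rose from 1 count to 413, 558-fold in CPM (95% interval 99.6 to 22100). On the ruptured side it rose from 0 to 665 counts, at least 188-fold against a floor of 3 counts over the group. Both changes passed the quasi-likelihood test of edgeR at a false discovery rate (FDR, Benjamini-Hochberg adjusted over all genes tested) of 0.05, with a log2 fold change of 7.69 ± 0.46 (SE) and FDR = 2.5e-15 on the unruptured side and FDR = 7.1e-10 on the ruptured side. The fitted value on the unruptured side, 207-fold, is below the pooled ratio, and both rest on 1 count without hCG. For comparison, 25.4% and 29.7% of all genes tested rose on the unruptured and ruptured side. With every library thinned to 1497071 counts, all 25 post-hCG libraries kept an Edn2 count and 1 of the 29 without hCG did. Edn2 passed the expression filter in these comparisons through its post-hCG counts alone.

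Between the sides post-hCG, Edn2 had a log2 fold change (ruptured minus unruptured, as in all side comparisons) of 0.64 ± 0.30 (95% interval 0.05 to 1.23), which did not pass the adjusted threshold (edgeR FDR = 0.13), whereas 21.4% of genes did. The groups overlapped, and 10 of 13 ruptured libraries were above the unruptured median TPM. Among ruptured libraries, the 5 of plate row C held 45 to 146 counts and the 8 of row D held 17 to 42. Among unruptured libraries, the 8 of row B held 12 to 108 counts (median 19.5) and the 4 of row C held 27 to 49 (median 34.5). Unruptured replicate 4 of row B, with 108 counts, was above 4 of the 5 ruptured libraries of row C. Within row C alone Edn2 was higher on the ruptured side by 1.09 ± 0.31 (edgeR FDR = 0.035), with row as a factor over all 25 libraries the difference was 1.09 ± 0.44 (FDR = 0.12), and without ruptured replicate 5, the library with 146 counts, it was 0.40 (FDR = 0.33). The hCG effect on the ruptured side exceeded that on the unruptured side by 1.18 ± 1.44, with FDR = 0.69 in the edgeR interaction test.

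**Figure D1:**
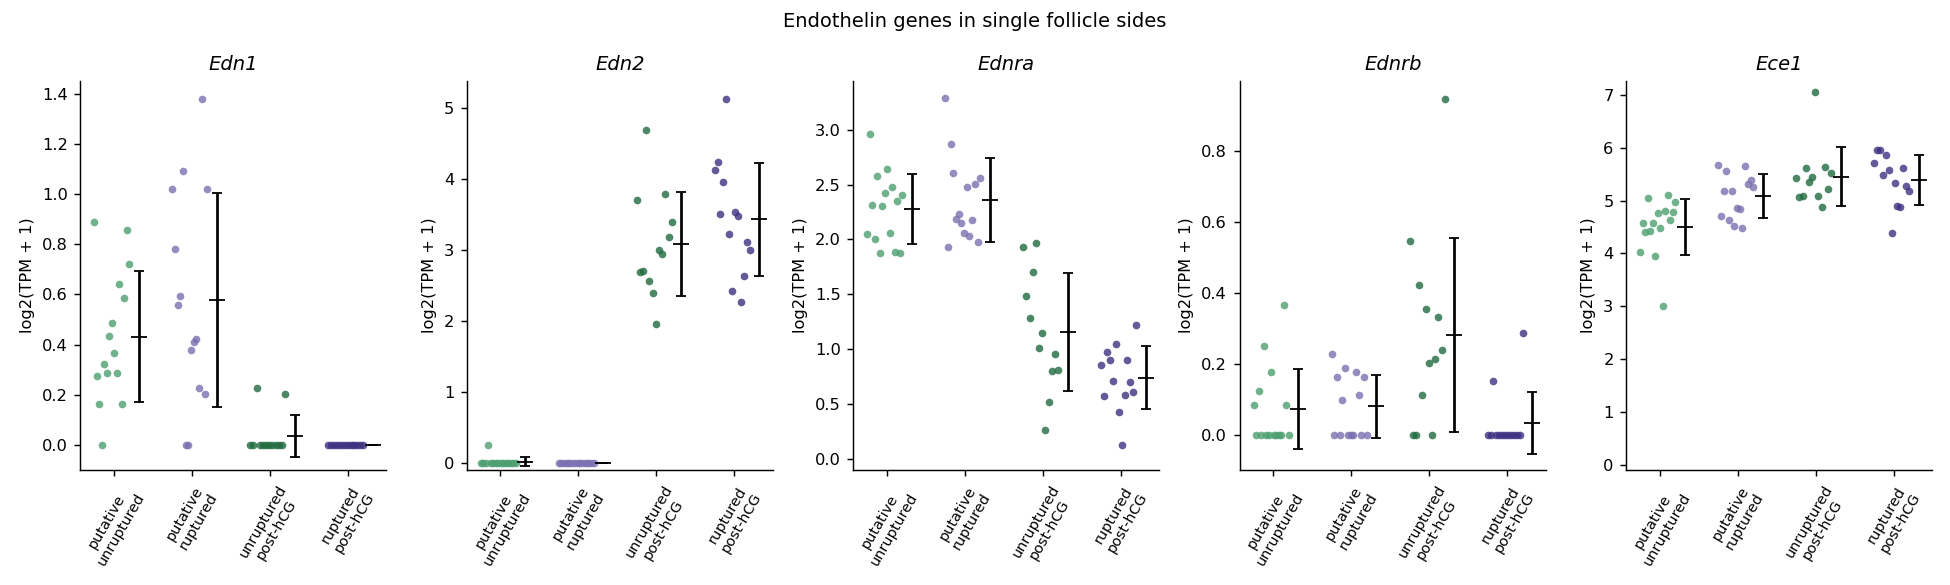
Levels of the 5 endothelin genes as log2(TPM + 1) in every follicle side by group. Each point is 1 library, and the bar beside the points gives the mean and SD over 12 to 15 libraries. Edn2 separates by medium without overlap, Ednra and Edn1 are lower post-hCG, Ednrb stands above its other groups on the unruptured side post-hCG, and Ece1 is present in all libraries.

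Edn1 (chr13:42301476-42307990, plus strand, 1 transcript of 2139 bases) overlaps Gm47118 on the opposite strand, and the sources used here do not state whether reads were counted by strand. It encodes endothelin-1, best known as the constrictor peptide of vessel walls. On the putative unruptured side 14 of 15 libraries held an Edn1 count, with 0 to 7 counts (median 2) and 0 to 0.85 TPM. On the putative ruptured side 12 of 14 did, with 0 to 9 counts (median 2.5) and 0 to 1.6 TPM. On the unruptured side post-hCG, 2 of 12 libraries held 1 count each, and on the ruptured side post-hCG 0 of 13 held any, which allows up to 0.103 CPM.

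Edn1 ran opposite to Edn2, at a level close to the limit of these libraries. No library held as many as 10 Edn1 counts, so Edn1 did not pass the expression filter and was tested in the fit without it, in which 15.9% of 20960 genes fell on the unruptured side and 17.8% of 20569 fell on the ruptured side with hCG. Pooled Edn1 CPM fell from 45 counts to 2 on the unruptured side, a ratio of 16.65 (95% interval 4.35 to 142), with edgeR FDR = 5.1e-05. They fell from 47 counts to 0 on the ruptured side, at least 18.5-fold, with edgeR FDR = 1.4e-05. The sides without hCG differed by 0.58 ± 0.44 (edgeR FDR = 0.46), where 8.49% of genes passed without the filter, and by 0.36 (FDR = 0.65) without putative ruptured replicate 12. The interaction was -1.84 ± 0.98 (edgeR FDR = 0.39).

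The bases before the start sites of both ligand genes are shown because the genes differed in opposite directions between the media. They are the 250 bases upstream of the start, 5′ to 3′ on the gene's strand, from RefSeq on GRCm38.p6, at chr4:120160956-120161205 for Edn2 and chr13:42301226-42301475 for Edn1. Capitals mark matches to any of 5 short motifs searched on both strands.
Edn2: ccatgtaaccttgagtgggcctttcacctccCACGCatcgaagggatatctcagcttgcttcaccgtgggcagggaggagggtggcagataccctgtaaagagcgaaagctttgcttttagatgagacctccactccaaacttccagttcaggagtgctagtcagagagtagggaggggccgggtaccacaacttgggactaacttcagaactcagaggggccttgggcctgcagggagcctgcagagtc
Edn1: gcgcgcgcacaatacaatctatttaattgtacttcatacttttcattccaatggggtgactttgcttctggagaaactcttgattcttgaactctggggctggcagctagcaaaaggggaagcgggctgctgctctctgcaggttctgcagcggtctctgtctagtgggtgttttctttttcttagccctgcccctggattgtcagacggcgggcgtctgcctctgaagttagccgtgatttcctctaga
The motifs were the core of the hypoxia-inducible factor site (ACGTG or GCGTG), a progesterone receptor element (GNACA and TGTNC with 3 bases between them), an AP-1 site (TGANTCA), the core of a cAMP response element (TGACG) and a GC box (GGGCGG). The Edn2 window held 1 match, to GCGTG on the opposite strand, 219 to 215 bases before the start. Of 32851 windows of this length, 38.6% held a match to that core. The Edn1 window held no match. The other motifs, in the order given, occurred in 0.387%, 6.75%, 17.8% and 32.7% of the windows. A match is a description of the letters and not of binding.

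Ednra, the type A receptor, was the main endothelin receptor gene in every group and fell with hCG on both sides. It lies on chr8:77663031-77724464 (minus strand) and overlaps 4933431K23Rik on the opposite strand. On the putative unruptured side its 15 libraries held 39 to 73 counts (median 57) and 2.67 to 6.79 TPM (median 3.97). Its 14 putative ruptured libraries held 28 to 92 counts (median 41.5) and 2.81 to 8.74 TPM (median 3.625). These sides overlapped, and their difference of 0.18 ± 0.14 did not pass the test (edgeR FDR = 0.41). It was 0.07 without putative ruptured replicate 1 (FDR = 0.75) and 0.43 ± 0.27 within plate row G (FDR = 0.63).

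Post-hCG, Ednra counts were 2 to 32 (median 12) on the unruptured side, or 0.20 to 2.90 TPM (median 1.115). On the ruptured side they were 1 to 17 (median 8), or 0.09 to 1.33 TPM (median 0.64). All 13 ruptured libraries were below every putative ruptured library, a separation found for 4.34% of genes, while the ranges of the unruptured side overlapped between 2.67 and 2.90 TPM. Ednra fell by 1.57 ± 0.22 on the log2 scale on the unruptured side (edgeR FDR = 3.5e-07), 2.96-fold, where 27.7% of genes fell. It fell by 2.40 ± 0.20 on the ruptured side (FDR = 3.4e-12), 5.26-fold, where 30.4% of genes fell. The difference between these effects was -0.84 ± 0.31 (95% interval -1.44 to -0.23) and did not pass the adjusted threshold (edgeR FDR = 0.077), nor did any member's interaction, of 8.91% of genes that passed with the filter and 3.21% without it.

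Between the sides post-hCG, Ednra was 0.66 ± 0.30 lower on the ruptured side without passing the threshold (edgeR FDR = 0.11). By plate row, the 8 unruptured libraries of row B held 0.20 to 2.90 TPM with a median of 1.615, against medians of 0.745 in the 4 unruptured libraries of row C, 0.81 in the 5 ruptured libraries of row C and 0.58 in the 8 of row D. Within row C the sign turned, with 0.19 ± 0.33 higher on the ruptured side (FDR = 0.79). With library totals in place of TMM scaling, which moves the median of all genes to -0.14, the difference was -0.82 and passed (FDR = 0.048).

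Theca cells are a known site of the type A receptor, so the theca markers were set beside it. The summed TPM of 8 theca markers without hCG had medians of 501 on the putative unruptured (30.3 to 2633) and 36.9 on the putative ruptured side (5.76 to 527). It was 337 on the unruptured side post-hCG (73.8 to 1290) and 5.88 on the ruptured side post-hCG (2.68 to 51.4), where Cyp17a1 was at 0 in every library. The theca medians differed more between sides than between media, and those of Ednra more between media. Both were nevertheless lower post-hCG on each side. Among ruptured libraries the theca median went from 36.9 to 5.88 and that of Ednra from 3.625 to 0.64 TPM. Among unruptured ones they went from 501 to 337 and from 3.97 to 1.115 TPM. Col3a1 had the highest median of the list in every group (380.71, 17.045, 246.835 and 3.67 TPM, groups ordered as above). Ptch1, also listed, had medians of 2.58, 2.915, 2.27 and 1.8 TPM. Within groups, the Pearson correlation of Ednra with the mean log2(TPM + 1) of the list was 0.40 on the putative unruptured side (n = 15, permutation p = 0.14, rho = 0.32 with permutation p = 0.24, 0.25 without the 2 farthest libraries). It was 0.34 on the putative ruptured side (n = 14, permutation p = 0.23, rho = 0.45 with permutation p = 0.11, 0.19 without 2) and 0.36 on the unruptured side post-hCG (n = 12, permutation p = 0.25, rho = 0.29 with permutation p = 0.35, 0.36 without 2). On the ruptured side post-hCG it was 0.60 (n = 13, permutation p = 0.037, rho = 0.62 with permutation p = 0.026, 0.58 without 2). None passed after adjustment over 6 relations (smallest adjusted permutation p = 0.22 for r and 0.15 for rho), and within the plate rows of 6 or more libraries r was 0.16 in row F, 0.41 in row H, 0.49 in row B and 0.71 in row D. The part of theca cells in the Ednra result was not tested. In bulk samples fewer cells of a type and less RNA per cell cannot be told apart.

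**Figure D2:**
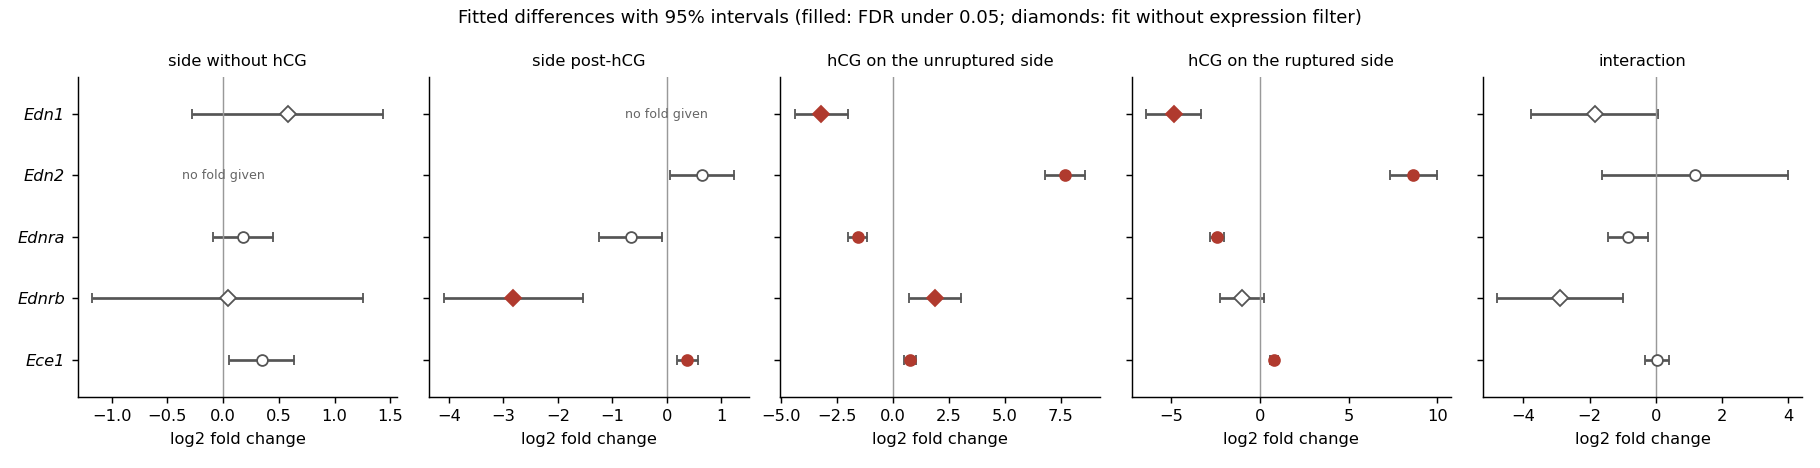
Fitted log2 fold changes of the 5 genes in the 4 comparisons and the interaction (ruptured minus unruptured, hCG minus no hCG), with 95% intervals. Filled symbols had an FDR under 0.05 in the edgeR test, and diamonds come from the fit without expression filter. Each panel has its own axis. No fold is given where both groups held 3 or fewer counts. The folds of Edn1 and Edn2 with hCG on the ruptured side are set against a group at 0 and depend on the prior count of the fit. That of Edn2 on the unruptured side is set against a group with 1 count.

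Ednrb, the type B receptor (chr14:103814625-103844402, minus strand), was detected by a few counts per library, and only the unruptured side post-hCG stood out. The putative unruptured side held 11 counts in 6 of 15 libraries (0 to 4 each) and the putative ruptured side 8 counts in 7 of 14 (0 to 2 each). On the unruptured side post-hCG, replicates 1 to 12 held 6, 0, 0, 3, 1, 3, 2, 0, 2, 2, 2 and 10 counts, so 9 of 12 libraries held a count. The ruptured side post-hCG held 3 counts in 2 of 13 libraries. All 4 groups overlapped at 0, and replicate 12 of the unruptured side alone held 32.3% of its group's 31 counts.

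Ednrb did not pass the expression filter, and in the fit without it the log2 fold change between the sides post-hCG was -2.82 ± 0.65 (edgeR FDR = 0.0022), while 6.34% of 20349 genes were lower there. The pooled ratio was 11.8 in favour of the unruptured side (95% interval 3.68 to 60.3), from 31 against 3 counts. The difference was -3.78 ± 1.02 within plate row C (FDR = 0.0059), where 4 of 4 unruptured libraries held a count and 1 of 5 ruptured libraries did, and it was -2.44 (FDR = 0.0082) without unruptured replicate 12. The hCG effect on the unruptured side was 1.89 ± 0.59 (edgeR FDR = 0.012), where 13.6% of genes rose without the filter, and the pooled ratio was 3.81 (1.86 to 8.40). Without unruptured replicate 12 this effect was 1.52 and no longer passed (FDR = 0.052). On the ruptured side the hCG effect was -0.99 ± 0.64 (FDR = 0.28), and without ruptured replicate 13, which held 2 of the 3 counts post-hCG, it was -1.76 (FDR = 0.063). The sides without hCG differed by 0.04 ± 0.62 (FDR = 0.98), and by 0.49 (FDR = 0.67) without putative unruptured replicate 13. The interaction was -2.89 ± 0.97 (FDR = 0.090).

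As Ednra was lower and Ednrb higher on the unruptured side post-hCG than on the putative unruptured side, the balance of the receptors was taken within libraries. Ednrb made up a median of 13.6% of receptor TPM on the unruptured side post-hCG (up to 55.4%). The median was 0.935% for putative ruptured libraries and 0 for the remaining groups. Ednrb exceeded Ednra in 1 of the 12 unruptured libraries post-hCG and in 0 libraries of each other group. That library, replicate 12, also gave the 55.4%, from 10 Ednrb and 9 Ednra counts. Endothelial cells are a known site of Ednrb, and the summed TPM of 6 endothelial markers was 1.67 to 13.5 (median 3.575) on the unruptured side post-hCG, 0.90 to 2.61 (median 1.91) on the ruptured side post-hCG, and had medians of 1.36 and 1.195 without hCG. Cdh5 had the highest median of the list on both sides post-hCG (2.415 and 1.14 TPM), followed by Vwf (0.77 and 0.35). Without hCG the medians of Cdh5 were 0.72 and 0.37. All 6 endothelial markers had a count in each group. Their sums overlapped between the sides post-hCG, whereas the theca sums above did not. The sum of 5 immune markers had medians of 1.165 on the unruptured and 0.65 on the ruptured side post-hCG. Their part in the Ednrb result was not tested.

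Ece1, the converting enzyme (chr4:137862237-137965229, plus strand, overlapping Gm13012 on the opposite strand), was the most abundant of the 5 genes by TPM and rose with hCG on both sides in counts. The putative unruptured libraries held 114 to 596 counts (median 366), and the putative ruptured ones 190 to 533 (median 324.5). Post-hCG, counts were 342 to 640 (median 510) on the unruptured side and 379 to 884 (median 585) on the ruptured side. All groups overlapped in TPM, with medians of 23.0, 35.4, 41.0 and 44.0 in this order. The rise was 0.75 ± 0.14 on the log2 scale on the unruptured side (edgeR FDR = 3.3e-05), 1.69-fold, and 0.80 ± 0.12 on the ruptured side (FDR = 1.2e-06), 1.74-fold. The interaction was 0.04 ± 0.19 (95% interval -0.33 to 0.40, FDR = 0.94).

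The sides differed less. Post-hCG, Ece1 was 0.38 ± 0.10 higher on the ruptured side (edgeR FDR = 0.0050), 1.30-fold, where 10% of genes were higher. Its 5 ruptured libraries in plate row C held 776 to 884 counts and the 8 in row D 379 to 612, against 342 to 615 in the 8 unruptured libraries of row B and 382 to 640 in the 4 of row C. Within row C the difference was 0.49 ± 0.14 (FDR = 0.037), and with library totals alone it was 0.23 and did not pass (FDR = 0.13). Without hCG, Ece1 was 0.35 ± 0.15 higher on the putative ruptured side without passing the threshold (edgeR FDR = 0.11; 17.8% of all genes tested passed). That value was -0.07 within plate row G (FDR = 0.94).

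**Figure D3:**
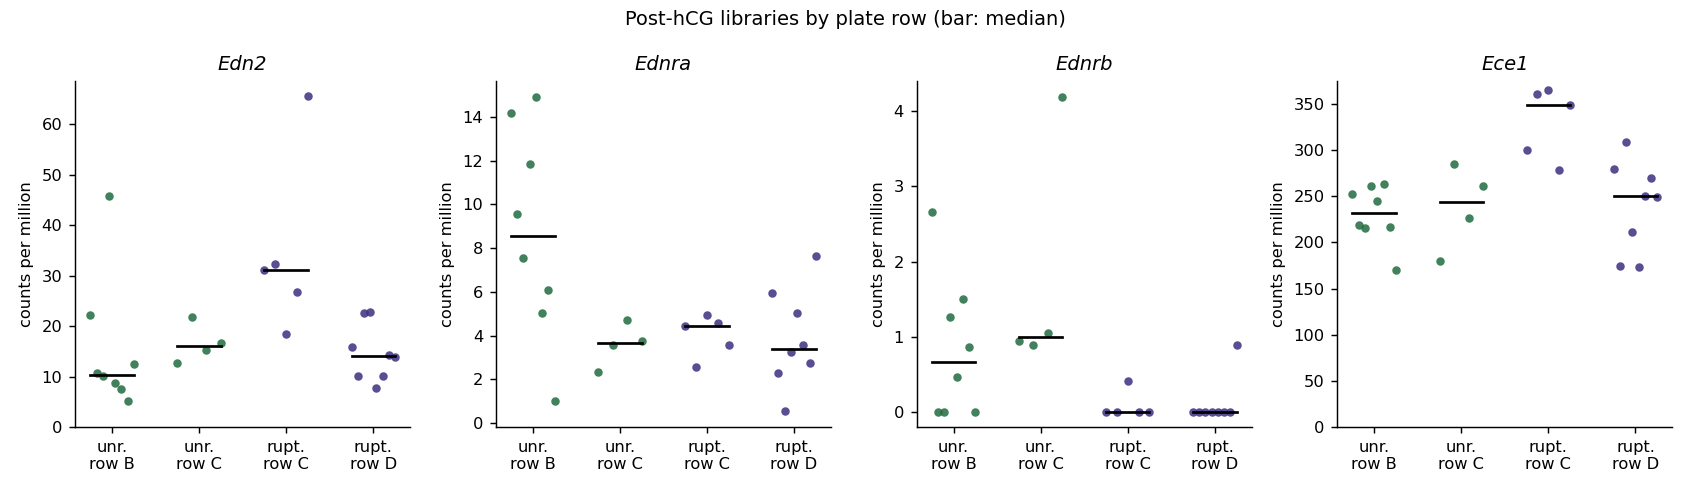
CPM of 4 endothelin genes in the 25 post-hCG libraries, by side (unr., unruptured; rupt., ruptured) and plate row, with the median as a bar. By median, Edn2 and Ece1 are highest in the ruptured libraries of row C and Ednra in the unruptured libraries of row B, with 1 unruptured library of row B also high in Edn2, and 9 of 12 unruptured and 2 of 13 ruptured libraries hold an Ednrb count.

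For Ece1 the deposited counts and the deposited TPM gave different pictures. On log2(TPM + 1), limma gave a side difference post-hCG of -0.06 ± 0.19 (FDR = 0.86), an hCG effect on the ruptured side of 0.31 ± 0.17 (FDR = 0.13) and a side difference without hCG of 0.59 ± 0.17 (FDR = 0.022). A count divided by its TPM is proportional to the transcript length used for that library, and it was scaled with 119 to 220 genes per library that have a single annotated transcript. The implied length of Ednra was then 3411 to 3763 bases over the libraries with at least 10 counts, near its annotated coding transcript of 3625 bases. That of Edn2 was 1268 to 1319 bases in the 25 post-hCG libraries, shorter than its 1 annotated transcript of 1462 bases. The 1 library with 10 Ednrb counts gave 3334 bases, against coding transcripts of 4107, 3989 and 2669. The implied lengths therefore need not equal an annotated length. For Ece1 the putative unruptured libraries gave 3300 to 5049 bases (median 4135) and the putative ruptured ones 2064 to 5063 (median 3786). Post-hCG, the unruptured libraries gave 1192 to 4669 (median 4334) and the ruptured ones 3439 to 4901 (median 4230). Ece1 has annotated transcripts of 4816, 728, 321 and 172 bases. The library with 1192 bases, unruptured replicate 7 post-hCG, had 132 TPM from 498 counts, whereas the other 11 of its group had 28.6 to 48.6 TPM. Without it the group's mean log2(TPM + 1) was 5.30 in place of 5.45 ± 0.56 (SD, n = 12). Whether transcript use or the length estimate varied was not tested.

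**Figure D4:**
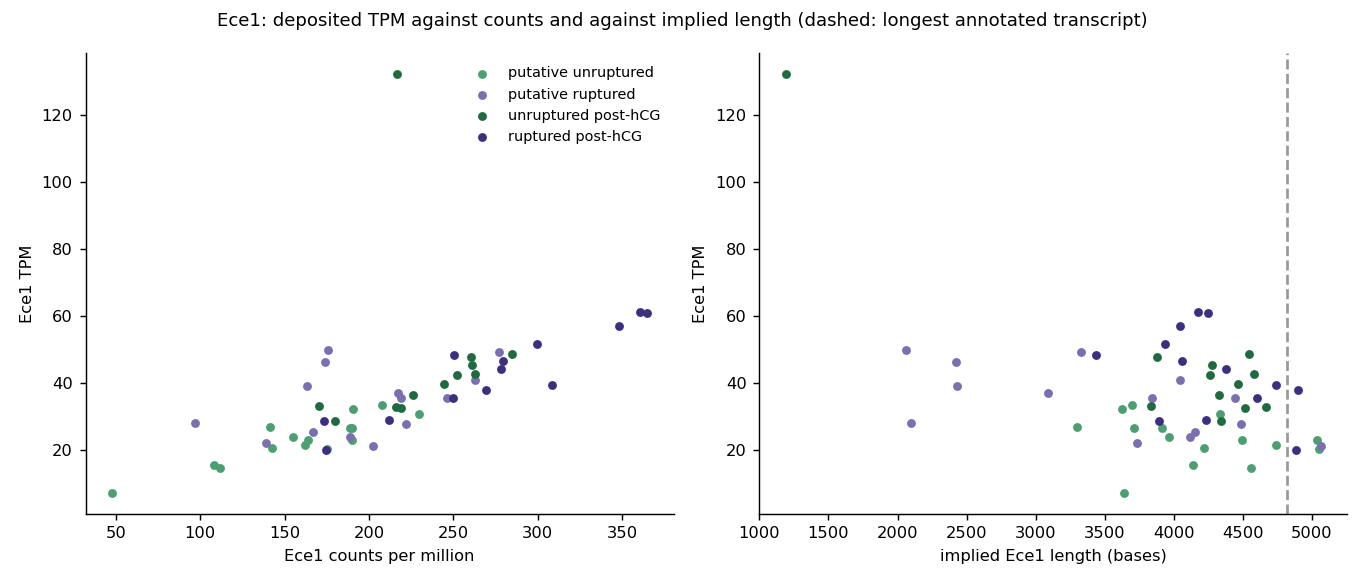
Ece1 TPM of each of 54 libraries against its CPM (left) and against the transcript length implied by counts and TPM (right). The dashed line marks the longest annotated transcript, 4816 bases. The library at 132 TPM has an implied length of 1192 bases.

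By median TPM the order without hCG was Ece1, Ednra, Edn1, with Ednrb and Edn2 at or near 0. On the putative unruptured side the TPM ranges of the first 3 did not overlap (7.05 to 33.2, 2.67 to 6.79 and 0 to 0.85), while those of Edn1 and Ednrb did. The order post-hCG was Ece1, Edn2, Ednra, Ednrb and Edn1 on the unruptured side, where Ece1 and Edn2 did not overlap and the lowest Edn2 library equalled the highest Ednra library at 2.90 TPM. On the ruptured side Ece1 (19.8 to 61.3 TPM) and Edn2 (3.84 to 33.8 TPM) overlapped, Edn2 and Ednra did not, and Ednrb and Edn1 were at a median of 0. Between the media, Edn2 moved from last to second in this order.

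The genes around the members were taken from a list of 45 by role. All 45 were in the table, and only those past the expression filter were tested. With hCG 29 were tested on the unruptured side, of which 13 rose and 10 fell, where 25.4% and 27.7% of all genes did (median log2 fold change 0.30, against -0.03 for all genes), and 24 were tested on the ruptured side, of which 11 rose and 7 fell, where 29.7% and 30.4% of all genes did (median 0.29, against -0.0012). Between the sides, 6 were higher and 3 lower on the putative ruptured side of 24 tested, with 8.84% and 8.96% of all genes (median -0.19, against -0.0058), and 7 were higher and 6 lower on the ruptured side of 25 tested post-hCG, with 10% and 11.3% of all genes (median 0.0048, against 0.011). Of 31 tested for the interaction, 3 were higher and 5 lower, with 4.25% and 4.65% of all genes. Beyond the 3 with the largest change per comparison, genes below were named after their values had been seen.

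Among the genes of ligand processing, Mme and Mmel1 passed the filter in at least 1 comparison. Mme encodes neprilysin, a peptidase that degrades endothelins, and it fell by 3.03 ± 0.36 with hCG on the unruptured side (edgeR FDR = 2.3e-08). Mmel1, a related membrane peptidase, rose by 3.40 ± 0.23 with hCG on the ruptured side (FDR = 1.6e-14) and was 1.05 ± 0.18 higher on the ruptured than the unruptured side post-hCG (FDR = 8.0e-05). Mme did not pass the filter for hCG on the ruptured side, nor Mmel1 for hCG on the unruptured side, so neither was tested there. Their interactions of side and hCG were -1.46 ± 0.67 (edgeR FDR = 0.17) and 0.16 ± 0.59 (FDR = 0.92). Ece2 and Kel, other peptidases that can process endothelins, did not pass the filter in any comparison.

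Of the G proteins and phospholipases C below the receptors, Gna11, Gna13 and Plcb4 rose and Gnaq fell with hCG on the unruptured side, of 7 tested. In ruptured libraries Gna11, Gna12, Plcb3 and Plcb4 rose and Gnaq fell, of 6 tested. Gnaq and Gna11 encode alpha subunits that couple endothelin receptors to phospholipase C, and they moved in opposite directions: Gna11 rose by 0.89 ± 0.12 and 1.55 ± 0.14, and Gnaq changed by -0.73 ± 0.16 and -0.86 ± 0.11. Of the calcium release channels and kinases, 5 were tested. Itpr1, an inositol trisphosphate receptor, rose by 2.01 ± 0.15 and 1.56 ± 0.15, and Prkca, a protein kinase C, rose by 1.89 ± 0.13 and 2.26 ± 0.13. Itpr3 and Prkcd also rose on the unruptured side, and Itpr2 fell on the ruptured side. All of these with hCG had an edgeR FDR under 0.05. Of all genes tested, 25.4% rose and 27.7% fell with hCG on the unruptured side, and 29.7% and 30.4% did on the ruptured side.

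Of 12 contraction genes listed, 7 were tested with hCG on the unruptured side and all 7 fell, where 27.7% of all genes did. They were Rhoa, Rock1, Rock2, Mylk, Myl9, Ppp1r12a and Acta2. Myl9, a myosin light chain of smooth muscle, was at -3.28 ± 0.44 and Acta2, smooth muscle actin, at -2.81 ± 0.39. Only 4 of the 12 were tested on the ruptured side, where 30.4% of all genes fell. Of these 4, Rock2 and Ppp1r12a fell, and Rhoa (-0.20 ± 0.10, edgeR FDR = 0.084) and Rock1 (-0.11 ± 0.15, FDR = 0.52) did not pass. Without hCG, Rhoa, Myl9 and Acta2 were lower on the putative ruptured side, of 7 tested, where 8.96% of all genes were lower. Acta2 was 1.53 ± 0.48 lower (edgeR FDR = 0.023). These calls were over all libraries. With plate row as a factor or within row G, no gene past the filter was called lower there. Post-hCG, the 5 tested between the sides were Rhoa, Rock1, Rock2, Ppp1r12a and Ppp1r14a, with a median log2 fold change of -0.014. Acta2, Myl9 and Mylk did not pass the filter there and were not tested. Myh11, Tagln and Cnn1, further smooth muscle genes, did not pass the filter in any comparison. The summed TPM of 6 smooth muscle markers, some of which are in this list, had medians of 34.7 and 5.43 on the putative unruptured and ruptured side and of 4.535 and 2.38 post-hCG. In the same order, Acta2 had medians of 29.1, 3.53, 2.895 and 0.87 TPM. Actg2, also a marker, had medians of 1.27, 0.775, 0.77 and 1.52, the highest on the ruptured side post-hCG. The part of muscle-like cells was not tested.

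In the nitric oxide arm, only Gucy1a3 was tested. It encodes a subunit of the soluble guanylate cyclase that nitric oxide activates, and its log2 fold change with hCG was -2.17 ± 0.17 on the unruptured and -3.32 ± 0.21 on the ruptured side (FDR = 2.7e-12 and 3.6e-15). It was 1.19 ± 0.23 lower on the ruptured side post-hCG (edgeR FDR = 0.00026). Nos3, the nitric oxide synthase of endothelium, Gucy1b3 and Prkg1 did not pass the filter.

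Genes that the literature links to Edn2 made up the last role, and whether any of them controls Edn2 was not tested. With hCG on the unruptured side 6 of 8 tested rose, where 25.4% of all genes did. Adcyap1, the neuropeptide PACAP, led at 7.89 ± 0.28, followed by Adamts1, a protease of the follicle matrix, at 4.46 ± 0.20. Ereg, an EGF-like factor, came next at 3.996 ± 0.38. Among 7 tested on the ruptured side 4 rose and 2 fell, where 29.7% and 30.4% of all genes did. Adcyap1 led the rises at 7.01 ± 0.40, with Adamts1 at 4.21 ± 0.19 and Prkg2, a cGMP-dependent protein kinase, at 3.41 ± 0.21. Hif1a and Epas1, the hypoxia-inducible factors, fell. Without hCG, Hif1a, Epas1, Pparg and Adamts1, all 4 tested, were higher on the putative ruptured side, where 8.84% of all genes were. Pparg, a nuclear receptor, led with 1.86 ± 0.24 (edgeR FDR = 1.8e-06) and Epas1 followed with 1.48 ± 0.31 (FDR = 0.00096). These calls were over all libraries. With plate row as a factor 4 of 9063 genes were called between these sides, and within row G 3 of 9068. Edn2 itself had a count in 1 of 15 putative unruptured and 0 of 14 putative ruptured libraries and was not tested between these sides. Post-hCG, Epas1, Pparg, Prkg2 and Adamts1 were higher and Adcyap1 and Ereg lower on the ruptured side, of 7 tested. Of all genes, 10% were higher and 11.3% lower there. Among the 7, Ereg differed most at -1.22 ± 0.30 (edgeR FDR = 0.0036).

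Pgr, the progesterone receptor, which is induced early after the surge, was at 0 to 4 counts per library post-hCG, with a count in 7 of 12 unruptured and 5 of 13 ruptured libraries, and did not pass the filter. The correlation of Edn2 with Pgr was 0.12 on the unruptured side post-hCG (n = 12, permutation p = 0.72, rho = 0.18 with permutation p = 0.57, 0.04 without 2) and -0.0030 on the ruptured side (n = 13, permutation p = 0.99, rho = 0.12 with permutation p = 0.69, 0.44 without 2). The adjusted permutation p over the 6 relations was 0.87 and 0.99. Within rows B and D, the rows with 6 or more libraries, r was -0.063 and 0.075.

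**Figure D5:**
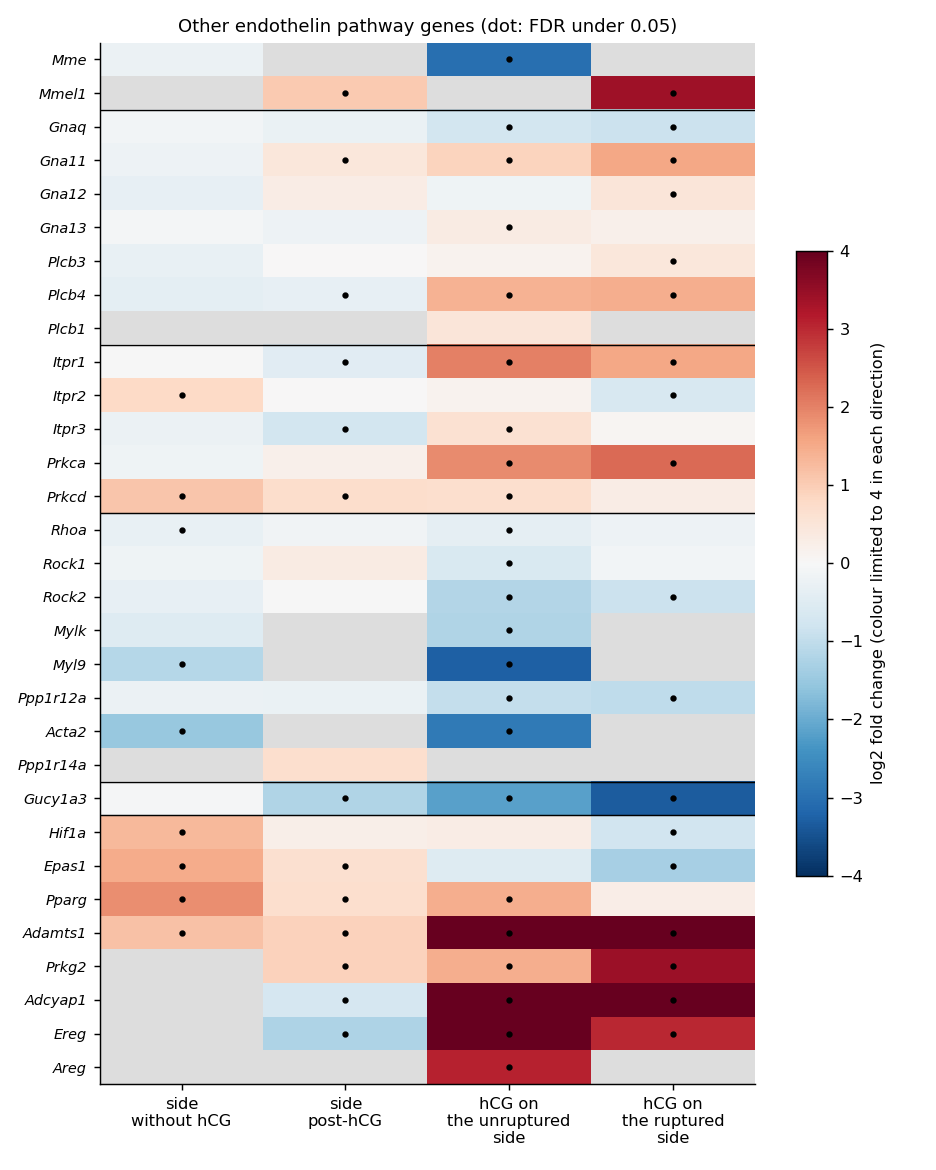
Log2 fold changes of the other endothelin pathway genes that passed the expression filter in at least 1 comparison, by role from top to bottom (processing, G proteins and phospholipase C, calcium release and kinases, contraction, nitric oxide arm, genes linked to Edn2). Dots mark an FDR under 0.05, grey cells were not tested, and colour is limited to 4 in each direction. The 7 contraction genes tested with hCG on the unruptured side are all lower, where 27.7% of all genes tested are lower.

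The genes whose levels were most like those of each member are given as a description, with Pearson's r of log2(TPM + 1), taken over genes whose mean reached 1 TPM. Within the 25 post-hCG libraries, which share 2 groups and 3 plate rows, the 5 genes most like Edn2 were Btg2 (r = 0.84), Cplx1 (0.72), Smtn (0.71), Pdlim2 (0.71) and Mrfap1 (0.71). Over all 54 libraries, which share the shift between media, those most like Ednra were Thbs1 (0.91), Ttc3 (0.91), Fbn2 (0.90), Ackr3 (0.90) and Tmtc2 (0.90). With group means subtracted they were Sh3pxd2b (0.63), Nrp1 (0.62), Zcchc9 (0.61), Cse1l (0.59) and Setd5 (0.59). For Edn1 they were Cxcl5 (0.75), Ackr3 (0.75), Il7 (0.73), Mycn (0.72) and Thbs1 (0.72), and with group means subtracted Ago3 (0.53), Lbhd1 (0.51), Ackr3 (0.48), Mid1 (0.47) and 3110070M22Rik (0.46). For Ece1 they included Cyfip2 (0.76), Gramd1b (0.76), B4galt7 (0.75) and Vasn (0.74), and with group means subtracted Plekha1 (0.73), Slc39a3 (0.69), Pskh1 (0.66), Preb (0.64) and Mylip (0.64). Ackr3 and Thbs1 stood among the 5 for both Edn1 and Ednra.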

How the data were processed

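Single follicle sides were sequenced with Smart-Seq2, and per the study's methods the authors used HISAT2 with GRCm38 for alignment and corrected batches with ComBat-seq. The authors deposited estimated counts per gene and TPM, and the counting program and whether either table precedes the batch correction are not given in the sources used here. The labels also name Seurat 4.

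Counts were rounded, filtered (filterByExpr, minimum count 10 and total 15), normalized with TMM, and analysed by the quasi-likelihood test of edgeR 4.0.16 (R 4.3.3) at an FDR of 0.05, each comparison on its own 2 groups and the interaction on all 4. Edn1 and Ednrb failed the filter in every comparison, were tested without it, and Edn2 was not tested between the sides without hCG. Scripts were tested on simulated data. Levels used log2(TPM + 1), and relations 100000 permutations (scipy 1.17.1, two-sided). Alternatives were DESeq2 1.42.0, limma 3.58.1 on TPM, other scaling and filters, thinning, a replicate block and left-out libraries. Plate-row fits were added after seeing the data. Members, gene lists and named genes (the 3 largest changes per comparison) were chosen with earlier results of these data known. The deposited sample annotation was not used, and no deposited column went unmapped. A gene among those most like Ece1 is not reported here.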

Additional observations from a re-analysis of the deposited data

Results flagged for a closer look

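In 8 genes of the pathway list, of 31 tested, the hCG effect differed between the sides (ruptured minus unruptured, log2 scale). These passed the edgeR interaction test at an FDR under 0.05, as did 8.91% of all genes tested, while none of the 5 members passed. The effect was larger on the ruptured side for Prkg2 (1.96 ± 0.31, FDR = 2.1e-05), Gna11 (0.66 ± 0.19, FDR = 0.021) and Gna12 (0.64 ± 0.22, FDR = 0.047). It was lower on the ruptured side for Areg (-2.26 ± 0.67, FDR = 0.024), Pparg (-1.18 ± 0.29, FDR = 0.0050), Gucy1a3 (-1.16 ± 0.28, FDR = 0.0046), Hif1a (-1.06 ± 0.24, FDR = 0.0030) and Itpr2 (-0.78 ± 0.22, FDR = 0.019). For Hif1a the hCG effect was 0.30 ± 0.14 on the unruptured side (FDR = 0.074) and -0.75 ± 0.19 on the ruptured side (FDR = 0.00092).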

How the results depend on the processing

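Of the alternative values for the members' fold changes, 217 kept their direction and their side of the threshold, 14 reversed, 7 newly passed and 5 no longer passed. Those kept include all for the hCG effects on Edn2, Edn1 and Ednra, but none of them separates medium from plate row, because no row held both media. Fits by plate row were chosen after seeing the data. With row as a factor and within the shared row, Ednrb without hCG was -0.0062 and -0.015, Ece1 without hCG -0.067 and -0.067, and Ednra post-hCG 0.19 and 0.19, and Edn2 post-hCG passed within row C at 1.09. Genes called without hCG fell from 1613 to 4 and 3, and those post-hCG from 1833 to 726 and 748. The within-row fits held 5 unruptured and 5 ruptured libraries without hCG (row G), and 4 and 5 post-hCG (row C). With row as a factor all libraries entered, but only the row with both sides informs the side difference. The cause of the lower numbers was not tested.

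With limma on TPM (pseudocount 1, 0.1, and 1 without filter), Ece1 passed without hCG at 0.585, 0.608 and 0.585, turned post-hCG to -0.057, -0.058 and -0.057, did not pass for hCG on the ruptured side at 0.31, 0.31 and 0.31, and turned in the interaction to -0.64, -0.67 and -0.64. The same fits called 1054, 1051 and 1034 genes without hCG. All 4 groups in 1 fit made Ece1 pass without hCG at 0.35. With library totals only, Ednra post-hCG passed at -0.82, Ece1 post-hCG did not at 0.23, and the Ece1 interaction was -0.057. That scaling moved the median of all genes for hCG to -0.25 (unruptured) and -0.33 (ruptured), with 1455 higher and 3844 lower (main 2365 and 2582) and 1376 and 4242 (main 2532 and 2597), and between the sides post-hCG to -0.14, with 397 and 1830 (main 862 and 971), for which limma gave 214 and 2166. Without unruptured replicate 12 post-hCG, the Ednrb hCG effect was 1.52.

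For replicate numbers shared between groups, the correlation of same-numbered deviations ran from -0.25 to 0.41, with 2 to 4 pairs above 0.1 per comparison. These values cannot show whether 2 sides came from the same follicle. With the replicate block Ednra post-hCG passed at -0.75, the Ece1 interaction was -0.056, and no other call of a member changed. The correlation of Edn2 with Pgr on the ruptured side was 0.021 with a pseudocount of 0.1. Edn1 and Ednrb rest on under 10 counts in nearly all libraries, so small differences there were not detectable at this depth.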
